A study of Homo sapiens with 8 samples.

Results

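The mRNA levels of 10 genes of the NF-κB pathway were analyzed in RNA-seq libraries of the Burkitt lymphoma line Raji and of its rituximab-resistant derivative Raji-4RH. The genes were taken by symbol, with earlier results of these data known. They were the 5 subunit genes NFKB1, NFKB2, REL, RELA and RELB, the inhibitor genes NFKBIA and NFKBIE, and the feedback targets TNFAIP3, TRAF1 and BIRC3. All 10 were found among the 18143 genes that could be placed in the deposited table, and all 10 were among the 10710 genes tested. Raji-4RH is 1 resistant line, obtained from Raji by repeated exposure to rituximab, an antibody against CD20. Both lines were treated for 24 h with DMSO, the solvent, or with 3 μM chidamide, a benzamide inhibitor of histone deacetylases, and were collected by flow sorting, for which no gate is given in the sources used here. The 4 groups were Raji with DMSO, Raji with chidamide, Raji-4RH with DMSO and Raji-4RH with chidamide, with 2 libraries each and no other agent. The labels do not say whether the 2 libraries of a group came from separate cultures, so p-values measure the spread between these libraries, which may be technical.

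NF-κB proteins are dimeric transcription factors that are held in the cytoplasm by inhibitors of the IκB family. In the canonical branch the IKK complex marks the inhibitors for degradation, and dimers of RELA or REL with the product of NFKB1 enter the nucleus. In the noncanonical branch the kinase NIK drives processing of the NFKB2 precursor, which partners RELB. In B cells these branches act downstream of the B-cell receptor, CD40 and the BAFF receptor. Several pathway genes are themselves NF-κB targets and feed back on it, through new inhibitor (NFKBIA, NFKBIE), through a deubiquitinating enzyme (TNFAIP3) or through ubiquitin ligase complexes (TRAF1, BIRC3).

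Values are FPKM, the reads of a gene scaled to the length of its exons and to the total reads of the library. Library totals were 13991697 to 21193441 reads, the smallest in replicate 1 of Raji-4RH with chidamide. The members had 182 to 33908 reads in a library. Each library was closest to the other library of its own group, with a root mean square distance of 0.096 to 0.195 on log2(FPKM + 1), the largest between the 2 Raji-4RH chidamide libraries. All 7 B-cell markers were present, MS4A1 at 12.5 FPKM or more and CD79B at 232 or more, and their summed level was 758 to 1149 FPKM with DMSO and 610 to 1004 with chidamide. The summed levels of marker lists of other cells were higher with chidamide, for 5 T-cell genes (0.0712 to 0.943 FPKM with DMSO and 0.815 to 4.95 with chidamide), 3 NK-cell genes (1.32 to 2.08 and 2.7 to 6.1), 3 placed of 4 monocyte genes (0.826 to 0.981 and 5.75 to 7.92) and 3 fibroblast genes (0.0409 to 0.191 and 1.14 to 2.33). Within these lists CD3E reached 4.1 FPKM, NKG7 5.96, CSF1R 5.06, LYZ 4.13 and COL1A1 2.3, whereas CD8A, KLRD1 and COL1A2 were at 0.0734, 0.0593 and 0.0577 FPKM or less in all 8 libraries. The part of these markers in the results was not tested. In these bulk libraries a change in every cell and a change in the share of cells with the mRNA cannot be told apart.

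The kappa B consensus, the DNA motif that NF-κB dimers recognize, was searched on both strands of the 250 bases before each RefSeq gene start (GRCh38.p14). It was present in 3498 of 35116 windows (10.0%), in 25 of the 110 windows of other pathway genes (22.7%) and in 7 of the 14 windows of the members. RELA, with 2 windows, and TRAF1, with 3, had no match, and RELB and NFKBIE were not among the entries. Matches in these letters are a description and not sites known to be bound. TRAF1, without a match, also rose with chidamide in both lines, and NFKB1, with a match, fell in Raji-4RH. A link of motif and response was not tested. One window each is shown for the members with a match whose mRNA rose in both lines, which fixes a rise beside each. They are written 5′ to 3′ on the strand of the gene, with the matches in capitals, and end where more than 30 bases of a GENCODE v29 exon would be included. They are chr10:102395455-102395704 (+ strand, NFKB2), chr2:60881324-60881550 (+, REL), chr14:35404750-35404999 (−, NFKBIA), chr6:137867009-137867217 (+, TNFAIP3) and chr11:102317234-102317479 (+, BIRC3).
NFKB2: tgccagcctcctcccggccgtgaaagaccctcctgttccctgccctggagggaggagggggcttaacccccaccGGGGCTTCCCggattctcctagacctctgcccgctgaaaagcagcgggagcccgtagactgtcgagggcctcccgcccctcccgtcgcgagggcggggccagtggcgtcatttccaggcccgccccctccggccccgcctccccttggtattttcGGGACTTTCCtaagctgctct
REL: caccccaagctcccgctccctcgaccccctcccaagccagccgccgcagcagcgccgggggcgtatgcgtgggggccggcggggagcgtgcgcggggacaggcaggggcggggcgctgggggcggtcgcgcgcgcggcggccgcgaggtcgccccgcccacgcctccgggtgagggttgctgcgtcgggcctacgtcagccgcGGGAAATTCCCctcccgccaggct
NFKBIA: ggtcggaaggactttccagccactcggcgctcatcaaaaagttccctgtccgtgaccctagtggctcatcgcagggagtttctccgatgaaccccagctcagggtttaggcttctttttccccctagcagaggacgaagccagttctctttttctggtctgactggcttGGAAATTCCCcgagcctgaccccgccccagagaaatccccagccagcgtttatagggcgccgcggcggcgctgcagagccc
TNFAIP3: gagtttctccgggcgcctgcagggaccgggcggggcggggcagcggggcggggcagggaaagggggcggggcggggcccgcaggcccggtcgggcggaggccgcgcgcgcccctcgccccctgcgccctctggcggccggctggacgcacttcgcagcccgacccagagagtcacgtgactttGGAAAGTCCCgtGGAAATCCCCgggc
BIRC3: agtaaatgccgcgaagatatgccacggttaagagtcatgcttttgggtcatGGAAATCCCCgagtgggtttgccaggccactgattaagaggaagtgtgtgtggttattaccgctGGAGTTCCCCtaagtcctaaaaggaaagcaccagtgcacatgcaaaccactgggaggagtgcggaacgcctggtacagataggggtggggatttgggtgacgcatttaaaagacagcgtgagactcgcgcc
The matches began 176 and 21 bases before the start in NFKB2, 47 and 46 in REL (overlapping), 81 in NFKBIA, 67 and 55 in TNFAIP3, and 199 and 135 in BIRC3. NFKB2 had a further RefSeq start with 3 matches, partly overlapping, and 1 with none, and NFKB1 had 1 match, 49 bases before 1 of its 2 starts.

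The question of the first comparisons was how each line responded to chidamide, and differences were tested with limma on log2(FPKM + 1) in 1 fit over the 8 libraries. In Raji cells TNFAIP3 and TRAF1 rose most among the members, TNFAIP3 from 2.72 to 29.1 FPKM and TRAF1 from 5.91 to 36.1 FPKM (means, n = 2 in each group). Of the 10 members, 7 were higher with chidamide in Raji and 0 were lower, beside 31.5% and 28.5% of all genes tested. The median log2 fold change was 0.87 over the members and 0.02 over all genes. In Raji-4RH cells 6 members were higher and 1, NFKB1, was lower, beside 43.3% and 31.6% of all genes, with medians of 0.37 and 0.09. Over all genes in Raji-4RH, 4642 were higher and 3380 lower, and quantile normalization turned this split to 3718 and 4057 with the median at -0.022, while calling 8 members. In Raji the split of 3370 higher and 3051 lower turned to 2643 and 3432 under quantile normalization, with 10 members called, and to 3036 and 3421 with median-centred libraries. The interaction is the log2 fold change in Raji-4RH minus that in Raji. It was below 0 for all 10 members in this fit, with a median of -0.44 beside 0.04 over all genes. It was called lower for 6 members, beside 21.7% of all genes called lower and 27.2% called higher. With DMSO alone, 3 members were higher in Raji-4RH than in Raji and 6 were lower, beside 41.2% and 32.4% of all genes. This comparison shares its DMSO libraries with both chidamide comparisons.

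**Figure D1:**
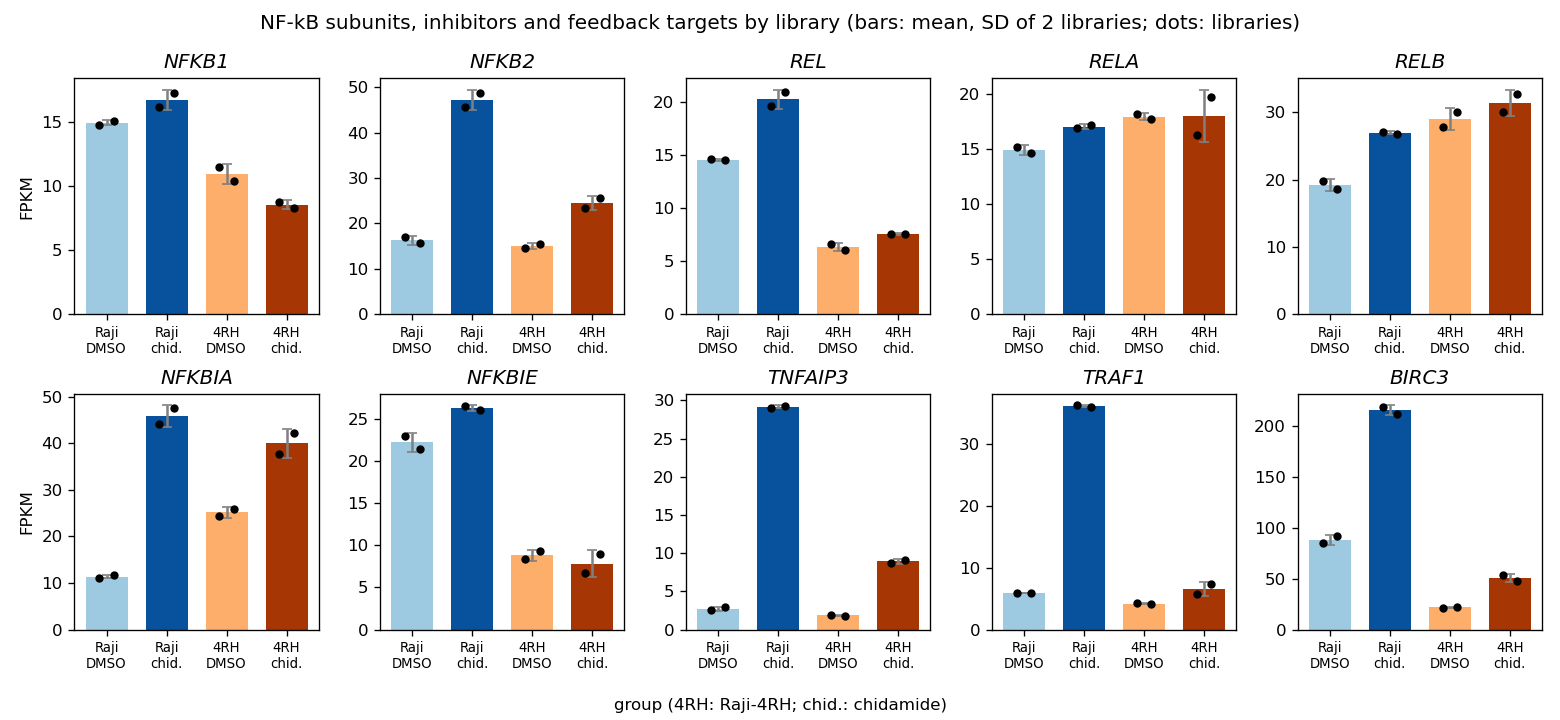
FPKM (y axis) of the 10 members in the 4 groups (x axis), where dots are libraries, bars are means and error bars are SD of 2 libraries. TNFAIP3, TRAF1, NFKBIA and NFKB2 were highest in Raji with chidamide, and NFKB1, REL, NFKBIE and BIRC3 were lower in both Raji-4RH groups than in both Raji groups.

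Among the subunits, NFKB2 had the largest response. NFKB2 (ENSG00000077150, chromosome 10 from 102394110 to 102402529, + strand, GRCh38 as in GENCODE v29) encodes the precursor of the noncanonical branch. Its level was 17 and 15.6 FPKM in Raji with DMSO, 45.6 and 48.8 in Raji with chidamide, 14.6 and 15.5 in Raji-4RH with DMSO and 23.4 and 25.5 in Raji-4RH with chidamide. The chidamide libraries lay above the DMSO libraries in both lines, with those of Raji highest. The rise was 2.89-fold in Raji (log2 fold change 1.48 ± 0.068 SE, limma adjusted p = 1.0e-06) and 1.63-fold in Raji-4RH (0.67 ± 0.068, adjusted p = 3.1e-05). The response was smaller in Raji-4RH by -0.81 on the log2 scale (adjusted p = 2.9e-04), and the lines with DMSO did not pass the test (-0.11, 95% interval -0.27 to 0.05, adjusted p = 0.177).

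RELB (ENSG00000104856, chromosome 19 from 45001430 to 45038198, + strand), the partner of the NFKB2 product, was at 19.8 and 18.6 FPKM in Raji with DMSO and 27.1 and 26.8 with chidamide. In Raji-4RH it was at 27.8 and 30.1 with DMSO and 30 and 32.8 with chidamide. Thus the untreated Raji-4RH libraries were already above the treated Raji libraries, and the 2 Raji-4RH groups overlapped. RELB rose with chidamide in Raji (0.47 ± 0.065, limma adjusted p = 3.6e-04). In Raji-4RH its difference was 0.12 ± 0.065 (adjusted p = 0.136), which passed under quantile normalization (0.36, adjusted p = 6.7e-04) and without replicate 1 of Raji-4RH with chidamide (0.18, adjusted p = 0.0309). The interaction for RELB was -0.35 (adjusted p = 0.0134) and did not hold under quantile normalization (-0.18, adjusted p = 0.114). It also missed the threshold without replicate 2 of Raji with DMSO (adjusted p = 0.0503), without replicate 1 of Raji with chidamide (adjusted p = 0.0515) and without replicate 2 of Raji-4RH with DMSO (adjusted p = 0.0617). With DMSO, RELB was 1.51-fold higher in Raji-4RH than in Raji (0.57, adjusted p = 6.5e-05).

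REL (ENSG00000162924, chromosome 2 from 60881521 to 60931610, + strand) encodes c-Rel, the subunit typical of lymphoid cells. It was at 14.6 and 14.5 FPKM in Raji with DMSO, 19.6 and 20.9 in Raji with chidamide, 6.58 and 6.06 in Raji-4RH with DMSO and 7.51 and 7.59 in Raji-4RH with chidamide. All 4 groups were separate, and both Raji-4RH groups lay below both Raji groups. REL was 2.3-fold lower in Raji-4RH with DMSO than in Raji with DMSO (log2 difference -1.09 ± 0.058, limma adjusted p = 6.3e-07). Chidamide raised it by 0.45 in Raji (adjusted p = 2.4e-04) and by 0.23 in Raji-4RH (adjusted p = 0.00729), the latter falling to 0.17 without replicate 2 of Raji-4RH with DMSO (adjusted p = 0.0654). The difference between these responses was -0.23 (95% interval -0.42 to -0.04, adjusted p = 0.0503), and it passed under quantile normalization (-0.36, adjusted p = 0.00923) and with median-centred libraries (-0.26, adjusted p = 0.0268). The gene length of REL in the deposited table is 11255 bases against 13170 in GENCODE v29, and 5702 bases of its exons are shared with AC010733.2 on the same strand, so its level is uncertain.

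NFKB1 and RELA are the main partners of the canonical dimer. NFKB1 (ENSG00000109320, chromosome 4 from 102501329 to 102617302, + strand) was at 14.8 and 15.1 FPKM in Raji with DMSO, 16.2 and 17.3 in Raji with chidamide, 11.5 and 10.4 in Raji-4RH with DMSO and 8.77 and 8.3 in Raji-4RH with chidamide. In Raji-4RH it fell with chidamide by 0.32 on the log2 scale (limma adjusted p = 0.00174), a 1.28-fold decrease. In Raji the difference was 0.15 (adjusted p = 0.0768), and it passed the threshold under quantile normalization (0.22, adjusted p = 0.0322), with only the libraries compared (adjusted p = 0.0496) and with voom on the recovered reads (adjusted p = 0.0497). The interaction was -0.47 (adjusted p = 0.00336), and NFKB1 was also lower in Raji-4RH than in Raji with DMSO (-0.42, adjusted p = 4.1e-04).

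RELA (ENSG00000173039, chromosome 11 from 65653596 to 65663094, − strand) was at 15.2 and 14.6 FPKM in Raji with DMSO and 16.9 and 17.2 with chidamide. In Raji-4RH it was at 18.2 and 17.7 with DMSO and 16.3 and 19.7 with chidamide, where the treated libraries enclosed the untreated ones. Neither response passed the test, with differences of 0.18 in Raji (95% interval -0.01 to 0.36, limma adjusted p = 0.0879) and 0.00 in Raji-4RH (-0.18 to 0.19, adjusted p = 1). The first passed under quantile normalization (0.25, adjusted p = 0.0232), with only the libraries compared (adjusted p = 0.0174) and without either Raji-4RH chidamide library (adjusted p = 0.00679 and 0.00689). The interaction was -0.18 (adjusted p = 0.226), and -0.31 without replicate 2 of Raji-4RH with chidamide (adjusted p = 0.00622). RELA was 1.2-fold higher in Raji-4RH with DMSO than in Raji with DMSO (0.25, adjusted p = 0.0214), a call that was lost without any 1 of the 4 DMSO libraries (adjusted p = 0.0544 to 0.102) and with no filter on low values (adjusted p = 0.0745). Of all members RELA had the smallest SD of the 4 group means, 0.12 on the log2 scale, and TNFAIP3 the largest, 1.54.

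The 5 subunit mRNAs together amounted to 81.4 and 78.5 FPKM in Raji with DMSO and to 78.7 and 79.7 in Raji-4RH with DMSO. With chidamide the sum was 125 and 131 FPKM in Raji and 86.1 and 94 in Raji-4RH. The untreated lines thus overlapped in the sum, and their composition differed. RELB made up 24.3% and 23.7% of the sum in Raji with DMSO and 35.4% and 37.7% in Raji-4RH with DMSO. REL made up 17.9% and 18.4% in the former and 8.36% and 7.6% in the latter. The share of NFKB2 was 20.9% and 19.9% in Raji with DMSO and 36.4% and 37.3% with chidamide, and in Raji-4RH it was 18.6% and 19.4% with DMSO and 27.2% in both chidamide libraries. These are shares of mRNA, and protein was not measured here.

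**Figure D2:**
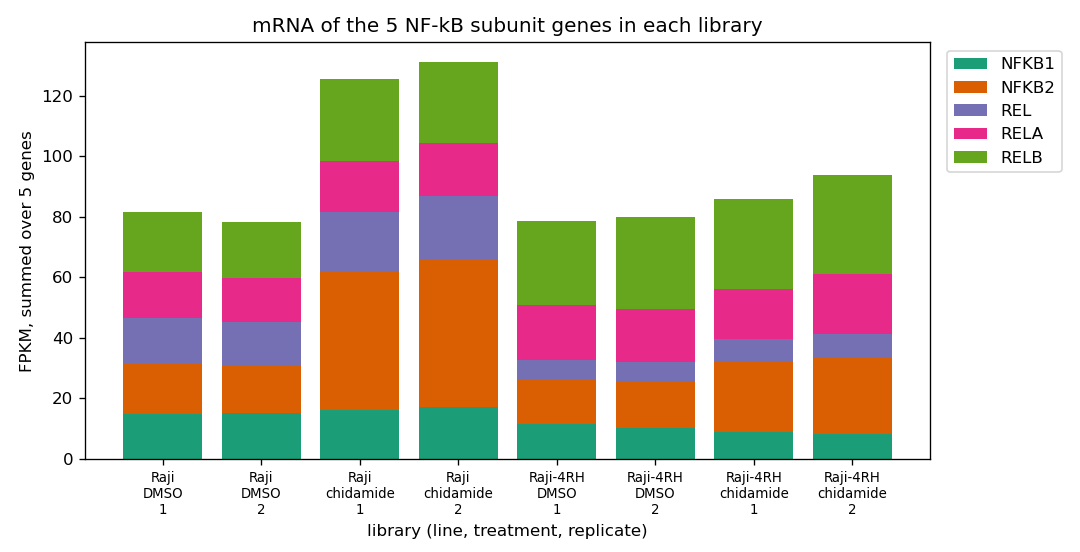
Stacked FPKM (y axis) of NFKB1, NFKB2, REL, RELA and RELB in each of the 8 libraries (x axis). The 4 DMSO libraries sum to 78.5 to 81.4 FPKM, the Raji chidamide libraries to 125 and 131 FPKM with NFKB2 as the largest part, and RELB is the largest part in all 4 Raji-4RH libraries.

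The inhibitor genes differed in opposite directions between the untreated lines. NFKBIA (ENSG00000100906, chromosome 14 from 35401511 to 35404749, − strand) encodes IκBα, the inhibitor that NF-κB induces to end its own activity. It was at 11.1 and 11.7 FPKM in Raji with DMSO, 44.2 and 47.5 in Raji with chidamide, 24.4 and 26 in Raji-4RH with DMSO and 37.8 and 42.2 in Raji-4RH with chidamide. All groups were separate, the untreated resistant line starting above the untreated parental line. With DMSO, NFKBIA was 2.2-fold higher in Raji-4RH than in Raji (1.08 ± 0.07, limma adjusted p = 2.0e-06). It rose 4.01-fold in Raji (1.91 ± 0.07, adjusted p = 3.8e-07) and 1.59-fold in Raji-4RH (0.65 ± 0.07, adjusted p = 4.5e-05). The interaction was -1.27 (adjusted p = 3.6e-05).

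NFKBIE (ENSG00000146232, chromosome 6 from 44258166 to 44265788, − strand), which encodes IκBε, was at 23 and 21.4 FPKM in Raji with DMSO and 26.5 and 26 with chidamide. In Raji-4RH it was at 8.37 and 9.29 with DMSO and 6.7 and 8.92 with chidamide, and these groups overlapped. It was 2.52-fold lower in Raji-4RH than in Raji with DMSO (-1.24 ± 0.11, limma adjusted p = 1.4e-05). The differences with chidamide were 0.23 in Raji (adjusted p = 0.102) and -0.17 in Raji-4RH (adjusted p = 0.197), with an interaction of -0.40 (95% interval -0.76 to -0.04, adjusted p = 0.0638). The last 2 differences were sensitive to replicate 2 of Raji-4RH with chidamide. Without it the difference in Raji-4RH was -0.35 and the interaction -0.58, with 1 treated Raji-4RH library left. Over all fits without 1 library the difference in Raji-4RH ranged from -0.35 to 0.02. The interaction ranged from -0.58 to -0.22. With all libraries kept, the interaction passed under quantile normalization (-0.54, adjusted p = 0.0248), with median-centred libraries (adjusted p = 0.0369) and with voom (adjusted p = 0.0447). In Raji the difference passed under 5 alternatives, from adjusted p = 0.00879 without replicate 1 of Raji-4RH with chidamide to 0.0434 under quantile normalization.

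Of the feedback targets, all 3 rose in both lines, beside 31.5% of all genes called higher in Raji and 43.3% in Raji-4RH. TNFAIP3 had the largest rise of all members in each line. TNFAIP3 (ENSG00000118503, chromosome 6 from 137867188 to 137883312, + strand) encodes a deubiquitinating enzyme that switches off signaling to IKK and is often lost in B-cell lymphoma. It was at 2.54 and 2.9 FPKM in Raji with DMSO, 29 and 29.3 in Raji with chidamide, 1.92 and 1.82 in Raji-4RH with DMSO and 8.72 and 9.15 in Raji-4RH with chidamide. The 4 groups were separate, and the chidamide groups of both lines were above both DMSO groups. TNFAIP3 rose 10.7-fold in Raji (3.02 ± 0.064, limma adjusted p = 4.9e-08) and 4.77-fold in Raji-4RH (1.79 ± 0.064, adjusted p = 1.2e-07). The interaction was -1.23 (adjusted p = 2.9e-05). With DMSO it was 1.45-fold lower in Raji-4RH (-0.37, adjusted p = 8.3e-04). Its exons share 95 bases with AL357060.1 on the opposite strand, and whether counting used strand is not given in the sources used here.

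TRAF1 (ENSG00000056558, chromosome 9 from 120902393 to 120929173, − strand), an adaptor that joins TNF receptor complexes and binds the BIRC ligases through TRAF2, was at 5.87 and 5.95 FPKM in Raji with DMSO and 36.2 and 36 with chidamide. In Raji-4RH it was at 4.25 and 4.17 with DMSO and 5.73 and 7.32 with chidamide. The treated Raji-4RH libraries thus overlapped with the untreated Raji libraries. TRAF1 rose 6.11-fold in Raji (2.43 ± 0.09, limma adjusted p = 3.9e-07) and 1.55-fold in Raji-4RH (0.52 ± 0.09, adjusted p = 7.8e-04). Its interaction of -1.90 (95% interval -2.20 to -1.61, adjusted p = 1.9e-05) was the largest in size among the members. With DMSO it was lower in Raji-4RH by -0.41 (adjusted p = 0.00331).

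BIRC3 (ENSG00000023445, chromosome 11 from 102317450 to 102339403, + strand), a ubiquitin ligase of the inhibitor of apoptosis family that restrains NIK, was the member with the highest FPKM in all 4 Raji libraries. It was at 85 and 91.7 FPKM in Raji with DMSO, 219 and 212 in Raji with chidamide, 21.6 and 22 in Raji-4RH with DMSO and 53.6 and 48.1 in Raji-4RH with chidamide. The groups were separate, and the treated Raji-4RH libraries remained below the untreated Raji libraries. BIRC3 was 4.05-fold lower in Raji-4RH with DMSO (-1.97 ± 0.066, limma adjusted p = 3.9e-08). Chidamide raised it 2.44-fold in Raji (1.28 ± 0.066, adjusted p = 1.9e-06) and 2.33-fold in Raji-4RH (1.18 ± 0.066, adjusted p = 9.3e-07). The difference between these responses was -0.09 with a 95% interval of -0.31 to 0.12 (adjusted p = 0.432).

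**Figure D3:**
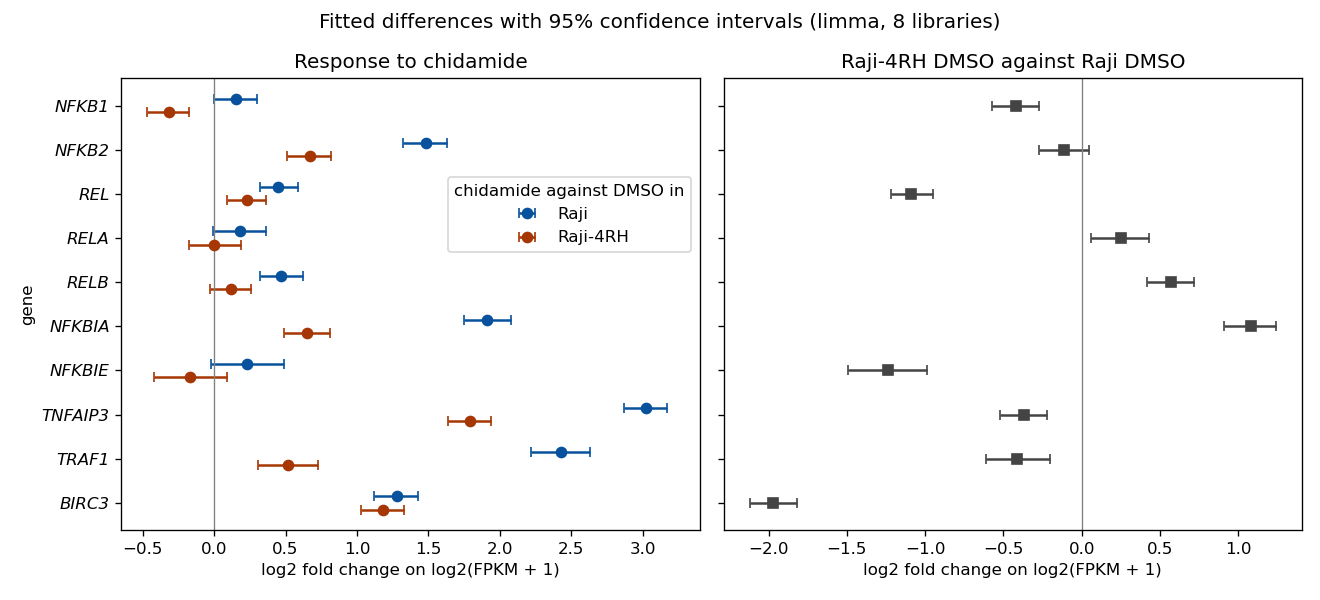
Log2 fold changes on log2(FPKM + 1) (x axis) with 95% confidence intervals for each member (y axis), for chidamide against DMSO in both lines (left) and for Raji-4RH against Raji with DMSO (right). TNFAIP3 and TRAF1 have the largest responses in Raji at 3.02 and 2.43, the intervals of the 2 lines overlap for BIRC3, and BIRC3 has the largest difference between the untreated lines at -1.97.

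A list of 81 other genes of the pathway was then described, of which 72 were placed and 66 passed the filter. In Raji 42 of the 66 were higher with chidamide and 6 were lower (31.5% and 28.5% of all genes), and in Raji-4RH 38 were higher and 12 lower (43.3% and 31.6%). The interaction was called lower for 29 and higher for 8 (21.7% and 27.2%). With DMSO 34 were lower in Raji-4RH than in Raji and 16 were higher (32.4% and 41.2%). The medians were 0.43, 0.25, -0.27 and -0.19 in this order, and those of all genes tested were 0.02, 0.09, 0.04 and 0.06. CHUK, IKBKG, TNF and LTB were among the 9 genes that were not placed.

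Of 21 tested target genes, 17 rose in Raji and 1 fell (31.5% and 28.5% of all genes), and in Raji-4RH 13 rose and 3 fell (43.3% and 31.6%). The interaction was called lower for 13 of them and higher for 1 (21.7% and 27.2%). IER3, an early response gene, went from 0.747 and 0.586 to 12.6 and 13.1 FPKM in Raji and from 1.38 and 0.696 to 10.7 and 14.6 in Raji-4RH (log2 fold changes 3.06 and 2.75). Without the chidamide libraries IER3 would not have passed the filter on low values, so this is a description. GADD45B, a stress response gene, rose by 0.79 and 1.16 in the 2 lines (limma adjusted p = 2.7e-04 and 1.4e-05). ICAM1, an adhesion molecule, was called in opposite directions. It rose in Raji from 14.4 and 13.5 to 34.2 and 36.1 FPKM (1.28, adjusted p = 3.6e-06) and was lower in Raji-4RH, from 5.61 and 5.74 to 3.9 and 4.64 FPKM (-0.34, adjusted p = 0.00298). TNFAIP2 was above 0.1 FPKM in the Raji-4RH chidamide libraries only, at 2.46 and 2.57 FPKM. Since it passed the filter on low values only through these libraries, this is a description.

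Of the further targets, CXCL10, CCL22, BCL2A1 and CD83 were chosen after their values were seen, for their high levels in treated Raji cells. Their differences in Raji are therefore a description and are given without p-values. CXCL10, a chemokine, was at 1.55 and 1.44 FPKM in Raji with DMSO and at 199 and 200 with chidamide, and in Raji-4RH at 0.136 and 0.12 with DMSO and 1.28 and 1.15 with chidamide. The chemokine CCL22 went from 1.94 and 1.66 to 38.7 and 38.7 FPKM in Raji and from 0.0182 and 0.0322 to 0.342 and 0.297 in Raji-4RH. In Raji both were higher with chidamide, by 6.33 and 3.83 on the log2 scale. In Raji-4RH CXCL10 rose by 0.97 (limma adjusted p = 1.2e-06) and CCL22 by 0.36 (adjusted p = 9.4e-04), the latter -0.02 under quantile normalization. These 2 values rest on few reads. CXCL10 had 3 and 3 reads in Raji-4RH with DMSO and 21 and 25 with chidamide. CCL22 had 1 and 2 reads with DMSO and 14 and 16 with chidamide. BCL2A1, an antiapoptotic BCL2 relative, went from 1.91 and 2.51 to 34.2 and 36.1 FPKM in Raji (3.50), beside 1.32 and 2.34 with DMSO and 2.36 and 2.59 with chidamide in Raji-4RH (0.32, adjusted p = 0.0965). The difference for BCL2A1 in Raji-4RH passed with a replicate block (adjusted p = 0.0296) and without replicate 2 of Raji-4RH with DMSO (adjusted p = 0.00414). CD83, an activation marker, went from 23.8 and 23.5 to 203 and 204 FPKM in Raji (3.06) and rose from 14.6 and 13.9 to 25.5 and 31.3 in Raji-4RH (0.94, adjusted p = 1.6e-05). EBI3, a cytokine subunit named by the same rule as the other list genes, rose from 9.94 and 8.31 to 66.7 and 70.2 FPKM in Raji (2.78, adjusted p = 2.1e-07) and from 0.0831 and 0.0735 to 1.95 and 2.2 in Raji-4RH (1.51, adjusted p = 8.8e-07). In Raji-4RH it had 2 and 2 reads with DMSO and 35 and 52 with chidamide. Its interaction was -1.27 on log2(FPKM + 1) and 0.71 with a pseudocount of 0.1, so that the line with the larger response depends on the scale.

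**Figure D4:**
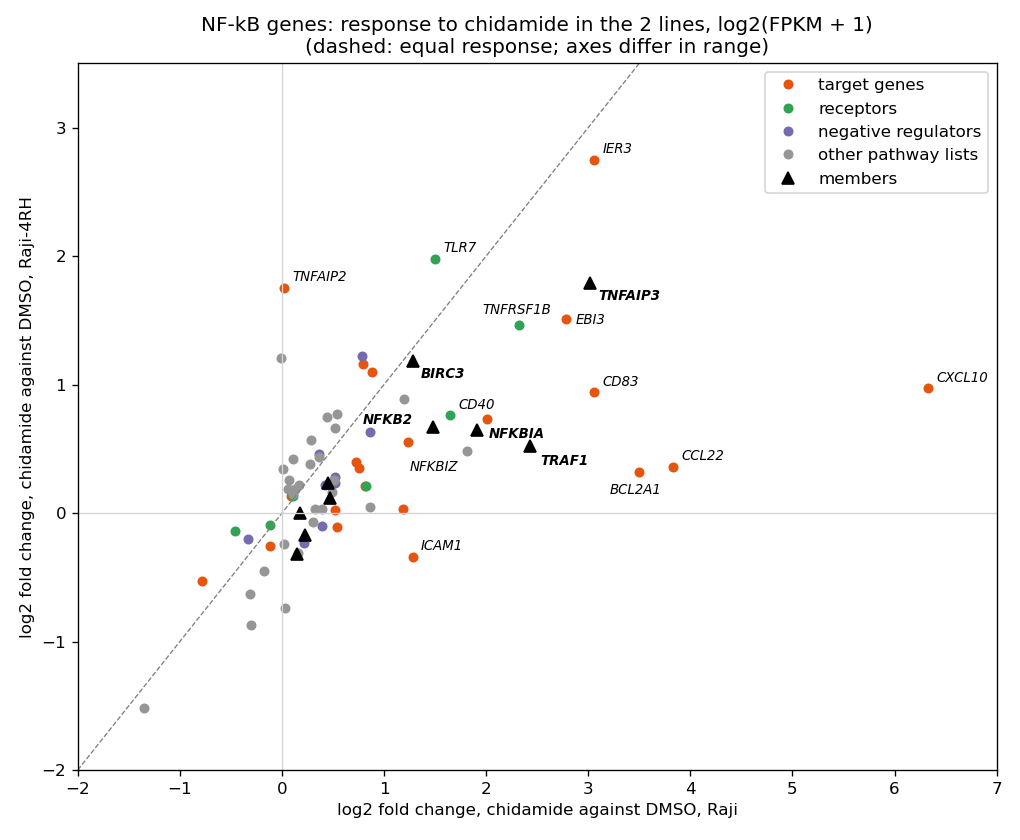
Log2 fold change with chidamide on log2(FPKM + 1) in Raji (x axis) and in Raji-4RH (y axis) for the 10 members (triangles) and 66 other pathway genes (dots, by list). TNFAIP3, TRAF1 and CXCL10 lie below the dashed line of equal response, BIRC3 lies close to it, and TNFAIP2 lies near 0 in Raji.

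Upstream of the inhibitors, genes that link the B-cell receptor to IKK differed between the untreated lines. PRKCB, a protein kinase C of B-cell receptor signaling, was at 20.9 and 20.7 FPKM in Raji with DMSO, at 38.6 and 38.3 with chidamide, and at 0.0926 FPKM or less in all 4 Raji-4RH libraries. PRKCB rose in Raji by 0.86 (adjusted p = 5.4e-06). BCL10 and MALT1, which act together in signaling to IKK, were higher in Raji-4RH than in Raji with DMSO (0.39 and 0.35, adjusted p = 0.00247 and 0.0023).

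In the IKK list, with 6 of 8 genes placed, IKBKB, the catalytic subunit of the canonical branch, was at 2.49 and 2.63 FPKM in Raji with DMSO and 7.09 and 6.55 in Raji-4RH with DMSO (1.14, limma adjusted p = 6.3e-07). MAP3K14, which encodes NIK, was at 7.52 and 7.85 FPKM in the former and 3.54 and 3.1 in the latter (-1.01, adjusted p = 1.2e-05). The adaptors TAB2 and TAB3 rose by 0.75 and 0.42 in Raji-4RH (adjusted p = 3.0e-05 and 6.9e-04). In Raji TAB2 also rose, by 0.44 (adjusted p = 0.00128), and TAB3 did not pass the test (0.11, adjusted p = 0.224).

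Among 13 tested adaptors and ubiquitin ligases, 4 rose and 2 fell in Raji (31.5% and 28.5% of all genes), and 6 rose and 4 fell in Raji-4RH (43.3% and 31.6%), which in Raji-4RH is near the shares of all genes. IRAK1, a kinase of Toll-like receptor signaling, fell in both lines, from 113 and 103 to 41.4 and 41.8 FPKM in Raji and from 103 and 119 to 34.2 and 42.3 in Raji-4RH (-1.35 and -1.52, limma adjusted p = 1.6e-05 and 3.2e-06). TRAF2, which recruits the BIRC ligases, fell by 0.31 in Raji and by 0.63 in Raji-4RH (adjusted p = 0.00269 and 2.3e-05). BIRC2, the close relative of BIRC3, rose by 0.54 and 0.77 (adjusted p = 2.5e-04 and 1.5e-05), and the adaptor TRADD rose by 0.52 and 0.66 (adjusted p = 0.00103 and 1.4e-04).

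Of 9 tested negative regulators, 8 rose and 1 fell in Raji (31.5% and 28.5% of all genes), and 6 rose and 2 fell in Raji-4RH (43.3% and 31.6%). TANK, an adaptor that binds TRAF proteins, rose by 0.78 in Raji and by 1.22 in Raji-4RH (limma adjusted p = 1.7e-05 and 5.4e-07), and the deubiquitinating enzyme CYLD rose by 0.86 and 0.63 (adjusted p = 1.1e-05 and 2.5e-05). TRAF3IP3 was called in opposite directions, at 0.22 in Raji and -0.23 in Raji-4RH (adjusted p = 0.0329 and 0.025), but the value in Raji was -0.04 under quantile normalization and the call in Raji-4RH was lost without replicate 1 (adjusted p = 0.109) or 2 (adjusted p = 0.0604) of Raji-4RH with DMSO or replicate 2 of Raji-4RH with chidamide (adjusted p = 0.11). Of the 4 further IκB genes, NFKBIB fell in Raji-4RH from 27.4 and 30.6 to 14.9 and 16 FPKM (-0.87, adjusted p = 8.6e-06) and in Raji by 0.30 (adjusted p = 0.00648, or 0.0516 without replicate 1 of Raji with DMSO). NFKBID fell in Raji-4RH by 0.74 (adjusted p = 2.9e-04), beside 0.03 in Raji (adjusted p = 0.851). BCL3, a nuclear partner of the NFKB1 and NFKB2 products, rose by 1.20 in Raji and by 0.89 in Raji-4RH (adjusted p = 2.4e-04 and 7.8e-04). NFKBIZ rose in Raji from 3.76 and 3.41 to 14.7 and 15.5 FPKM (1.81, adjusted p = 5.0e-07) and in Raji-4RH by 0.48 (adjusted p = 3.3e-04), the latter 0.02 under quantile normalization (adjusted p = 0.8).

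Of 7 tested receptors, 4 rose and 1 fell in Raji, and 4 rose and 0 fell in Raji-4RH, beside 31.5% and 28.5% of all genes in Raji and 43.3% and 31.6% in Raji-4RH. Among the latter 4, TNFRSF1A (0.21, limma adjusted p = 0.0321) was at -0.18 under quantile normalization. Its call was also lost with median-centred libraries (adjusted p = 0.149), with no filter (adjusted p = 0.0652) and with voom (adjusted p = 0.0617). The same held without any 1 of the Raji-4RH libraries (0.19 to 0.23). CD40, the receptor for T-cell help, rose from 16.7 and 17.9 to 56.4 and 56.3 FPKM in Raji and from 13.2 and 12.9 to 23.2 and 22.3 in Raji-4RH (1.65 and 0.76, limma adjusted p = 2.6e-07 and 3.4e-06). TNFRSF1B, a TNF receptor, rose by 2.32 and 1.46 (adjusted p = 7.0e-07 and 2.9e-06). TLR7, a receptor for RNA, was at 0.133 FPKM or less with DMSO and was higher with chidamide, by 1.50 in Raji and 1.98 in Raji-4RH. Since TLR7 passed the filter on low values only through the chidamide libraries, this is a description. Only 2 of 7 ligands were tested. CD70 was at 52.6 FPKM or more in every library and fell in Raji-4RH by 0.31 (adjusted p = 0.00308), which was -0.01 under quantile normalization (adjusted p = 0.881).

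For the 2 members with the largest SD of their 4 group means, the genes with the most similar profiles over the 8 libraries were sought among tested genes whose mean was 5 FPKM or more. The profiles were centered log2(FPKM + 1) values, and likeness was the root mean square distance. TNFAIP3 was nearest to TAGAP at 0.37, SP140 at 0.40 and CLEC17A at 0.47. BIRC3 was nearest to RAB29 at 0.18, MS4A1 at 0.18 and RHOV at 0.20. MS4A1, which encodes CD20, the target of rituximab, had means of 56.3 FPKM in Raji with DMSO, 124 in Raji with chidamide, 12.7 in Raji-4RH with DMSO and 23.6 in Raji-4RH with chidamide. The order of these 4 means was that of BIRC3, for which they were 88.4, 215, 21.8 and 50.8 FPKM. A search for like profiles favours such an order, and a link between the 2 genes was not tested.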

How the data were processed

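RNA of Raji and Raji-4RH cells was sequenced on an Illumina HiSeq X after library preparation with the NEBNext Ultra RNA kit. The submitters' processing notes name HISAT2 2.0.5, SAMtools 1.7, HTSeq 0.9.1, DESeq2 1.22.2 and the build GRCh38. FPKM values were deposited in 1 table with gene lengths, and multiplied by length and library total 100.0% came out as whole reads within 0.05. The table has 63967 labels for 63305 rows of values, and its last 662 rows repeat the first 662, so that from one label onward the values stand below their labels. Genes were placed by a rule of row offsets derived earlier from these data, which covered 18143 labels and 90.7% to 93.2% of the reads. In 12 of 12 segments the offset of the rule gave, among the offsets tried, the largest excess of reads of protein-coding over other labels. Values of NFKBIE, REL and RELA were taken 1, 3 and 5 rows below the label and those of the other 7 members from its row. FPKM was recomputed with the gene's own length, and 96.6% of 58039 lengths equal the joined exon length in GENCODE v29.

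The filter kept genes that reached 1 FPKM in 2 or more libraries. They were tested with limma 3.58.1 (trend) in R 4.3.3 on log2(FPKM + 1), in 1 fit over 8 libraries, and called at 0.05 after Benjamini-Hochberg adjustment over 10710 genes. On this scale the change of low genes is understated, and folds given as multiples are ratios of mean FPKM. The smallest two-sided p that an exact permutation test of 2 against 2 libraries allows is 0.333, so the calls depend on the variance pooled over genes. The fit also takes 1 spread per gene for all 4 groups, although the Raji-4RH chidamide libraries lay furthest apart. Intervals may thus be too narrow where these libraries enter and too wide within Raji, and leaving 1 of them out alters p-values in Raji. The fits were also run on simulated data with 1 spread per gene for all groups, which cannot check the effect of unequal spread. Members, pathway lists, markers and tests were chosen with earlier results of these data known. Named list genes were, per list, up to 4 genes called with chidamide in either line or between the untreated lines, ranked by the size of the log2 fold change in Raji-4RH with chidamide, and genes called in opposite directions in the 2 lines. CXCL10, CCL22, BCL2A1 and CD83 were added after their values were seen. Some genes of the lists are counted but not reported here by name. Alternatives were quantile normalization, median-centred libraries, no filter, a filter on the mean (1 FPKM), limma without trend, a pseudocount of 0.1, only the libraries compared, a replicate block, the rows as deposited, voom on recovered reads, a log2 fold change of at least 1 and leaving out each library, and a crossed replicate block was added after the data were seen. Python 3.11.15 with pandas 2.3.3, numpy 2.4.6 and matplotlib 3.10.9 was used for the other steps.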

Additional observations from a re-analysis of the deposited data

Results flagged for a closer look

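The response to chidamide differed between the lines, by the interaction test in limma at an adjusted p under 0.05, for 6 of the 10 members. The log2 fold change in Raji-4RH minus that in Raji was -0.47 for NFKB1 (adjusted p = 0.00336), -0.81 for NFKB2 (2.9e-04), -0.35 for RELB (0.0134), -1.27 for NFKBIA (3.6e-05), -1.23 for TNFAIP3 (2.9e-05) and -1.90 for TRAF1 (1.9e-05). These 6 are beside 21.7% of all genes tested called in this direction and 27.2% in the other. With a log2 difference of at least 1 as a further condition NFKB1, NFKB2 and RELB were not called, and RELB also lost the call in the settings given with its values.

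Among targets the interaction was -1.62 for ICAM1, -1.27 for EBI3, -5.36 for CXCL10, -3.46 for CCL22, -3.18 for BCL2A1, -2.11 for CD83 and 1.73 for TNFAIP2. CXCL10, CCL22, BCL2A1 and CD83 were chosen for their high levels in treated Raji cells, which favours a negative value, so their interactions are a description. TNFAIP2 passed the filter on low values only through the Raji-4RH chidamide libraries. The sign for EBI3 depends on the pseudocount, and that of CCL22 missed the threshold with voom on recovered reads (-1.14, adjusted p = 0.17). Among receptors and ligands it was -0.89 for CD40, -0.62 for TNFRSF1A, -0.86 for TNFRSF1B, 0.48 for TLR7 and -0.47 for CD70. TLR7 passed the filter on low values only through the chidamide libraries, so its value is a description. The interaction of TNFRSF1B missed the threshold with a pseudocount of 0.1 (-0.41, adjusted p = 0.191) and with voom (-0.27, adjusted p = 0.473), and that of CD70 under quantile normalization (-0.27, adjusted p = 0.0527).

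Among the other lists it was -0.56 for NFKBIB, -1.33 for NFKBIZ, -0.77 for NFKBID, 0.33 for IKBKB, 0.31 for TAB2, 0.31 for TAB3, -0.32 for TRAF2, -0.37 for MALT1, -0.81 for PRKCB, -0.24 for TNIP2, 0.44 for TANK and -0.45 for TRAF3IP3. The calls of TAB2, TAB3, TNIP2, TRAF2, MALT1 and IKBKB were each lost without at least 1 library. PRKCB was near 0 in Raji-4RH, and its interaction was 0.01 with voom.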

How the results depend on the processing

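Each result was recomputed under the alternatives, with 1 choice changed at a time. With a log2 fold change of at least 1 as a further condition, the counts were 1620 genes in Raji-4RH with chidamide, 560 in Raji with chidamide, 676 for the interaction and 1703 between the untreated lines, and the members called were 2, 5, 3 and 4. Leaving out each library gave 7168 to 8087, 5128 to 7115, 4044 to 6042 and 6960 to 8438 genes in the same order, with 6 to 8, 7 to 9, 5 to 8 and 8 to 9 members. With a replicate block the counts were 7886, 6183, 4915 and 7748 in place of 8022, 6421, 5231 and 7882, with no change in the number of members called. The replicate numbers are shared between groups, but correlations of the replicate differences were -0.279 to 0.166, so they were not taken as pairs. The crossed block, for the untreated lines only, gave 8037.

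Directions that reversed were mostly those read from the rows as deposited, where the values belong to another label. There the values in Raji-4RH were -0.57 for REL, -0.53 for RELA, 0.74 for IRAK1, -0.06 for BCL10, -1.89 for PRKCB and -0.11 for COMMD1. In Raji they were -0.21 for REL, -0.53 for RELA, -0.45 for NFKBIE, 0.19 for IRAK1, -0.11 for BCL10, -0.14 for PRKCB and -0.16 for COMMD1. For the interaction they were 0.55 for IRAK1, 1.19 for CXCL10 and 0.15 for BCL2A1, and between the untreated lines 0.03 for REL, -0.03 for RELA, 0.32 for NFKBIE, 0.85 for NFKBID, -0.80 for IRAK1 and 0.15 for PRKCB. Quantile normalization gave -0.18 for TNFRSF1A, -0.10 for TNFSF13 and -0.02 for CCL22 in Raji-4RH. It gave -0.18 for IKBKB, -0.04 for TRAF3IP3 and -0.04 for TNFSF13 in Raji, and -0.00 for TNFSF13 between the untreated lines. In the main fit TNFSF13 was at 0.38 in Raji-4RH, 0.27 in Raji and 0.21 between the untreated lines. There COMMD1 was at 0.46 and 0.36 and BCL10 at 0.44 and 0.36 in Raji-4RH and Raji. IKBKB was at 0.01 in Raji and PRKCB at 0.05 in Raji-4RH in that fit. The interaction of EBI3 was 0.71 with a pseudocount of 0.1 and 1.53 with voom, and that of PRKCB was 0.01 with voom. Beyond the alternatives' own construction, the cause was not tested. Without the rows as deposited, no member reversed its direction with a call on either side. Precision is limited by the 2 libraries a group, with 182 reads or more behind each member value. The 2 libraries of a group differed by more than counting error. A chi-square of their reads (1 degree of freedom) averaged 5.31 per gene in Raji with DMSO and 1.8 in Raji with chidamide. It averaged 2.39 in Raji-4RH with DMSO and 15.7 in Raji-4RH with chidamide, where counting error alone gives about 1.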
